A study of Oryza sativa with 4 samples.

Results

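The osrdr2-3 mutant of rice was compared with Nip, its control, in young panicle, the developing inflorescence, by RNA-seq of poly(A)-enriched RNA. The plants of both groups were japonica rice grown in soil, and the labels give the genotype of osrdr2-3 as DES1 mutant and that of Nip as control. Neither the lesion, the panicle stage, nor the number of plants behind a library is stated in the labels. Groups were set by library name: the 3 names starting with ck (ck1, ck2, ck3) were taken as Nip, and the 3 other names (des1-3, des1-4, des1-5) as osrdr2-3, so the comparison uses all 6 libraries of the deposited table. The labels describe only 2 samples of each group, and the numbers in the library names do not all match the sample titles: ck1 and ck2 correspond to Nip replicates 1 and 2, whereas ck3 and the 3 des1 names correspond to no single labelled sample. That ck stands for the control is not spelled out in the labels.

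OsRDR2 is an RNA-dependent RNA polymerase. In RNA-directed DNA methylation, such an enzyme copies transcripts into double-stranded RNA, Dicer-like enzymes cut it into small interfering RNAs, and Argonaute proteins loaded with these guide a DRM-class methyltransferase to matching DNA, where cytosines of every sequence context, CHH included, become methylated. In plants the pathway is known mostly for keeping transposons and nearby genes silent. By its title the study concerns CHH methylation by this pathway and sexual reproduction in rice, so the comparison asks which transcripts of the young panicle differ when OsRDR2 is impaired.

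Levels are FPKM (fragments per kilobase, scaled to library size), as deposited. The summed FPKM ran between 683210 and 789747 in osrdr2-3 libraries and between 721178 and 817000 in Nip libraries. In osrdr2-3 21786 to 22588 rows reached 1 FPKM, against 22346 to 23155 in Nip. The read depth is not known, since the table holds no counts. Nothing in the labels says that the libraries of a group came from separate plants, so the p-values below measure the spread between these libraries, which may be technical.

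One library of each genotype stood apart from the others. On log2(FPKM + 1) values, the first principal component, with 53.5% of the variance, separated osrdr2-3 from Nip, and the second, with 38.8%, separated des1-5 and ck3 from the other 4 libraries. The correlation across rows, whose genes are not independent replicates, was 0.991 between des1-3 and des1-4 and 0.991 between ck1 and ck2, but 0.924 between des1-3 and des1-5 and 0.926 between ck1 and ck3. The labels name no batch. Each result below that rests on these libraries was therefore also fitted with a term for des1-5 and ck3 and without them.

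**Figure D1:**
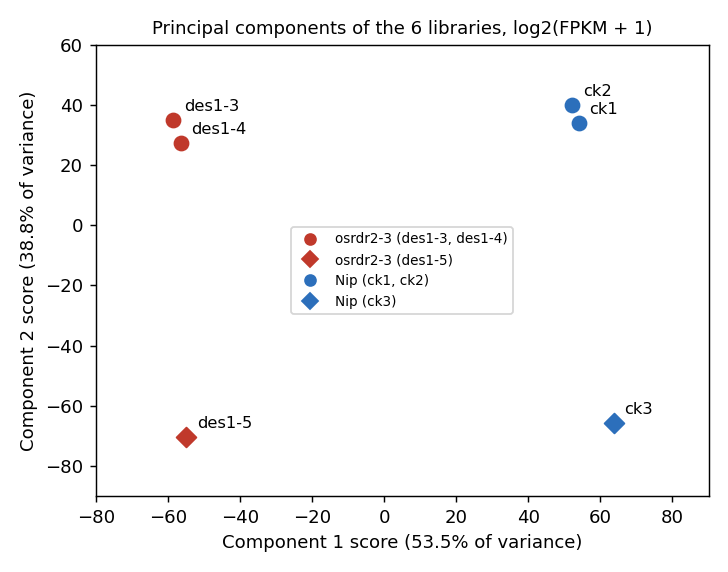
Scores of the 6 libraries on the first (53.5% of variance) and second (38.8%) principal components of log2(FPKM + 1), with osrdr2-3 in red and Nip in blue; diamonds are des1-5 and ck3. The genotypes lie on opposite sides of the first component, and both diamonds lie low on the second, at -70.4 (des1-5) and -65.7 (ck3), away from the circles.

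OsRDR2 itself was lower in osrdr2-3 but still transcribed. Its row (LOC_Os04g39160, chromosome 4, 23284654 to 23290538 in the table's coordinates, of a genome build that the sources used here do not name) was at 7.24, 7.18 and 7.79 FPKM in osrdr2-3 libraries, against 13.8, 12.8 and 14.6 FPKM in Nip libraries. The groups did not overlap, and the mean in osrdr2-3 was 53.9% of that in Nip. The log2 fold change was -0.81 (SE 0.10, n = 3 each; limma, Benjamini-Hochberg adjusted p = 0.00606), and the exact two-sided permutation test gave p = 0.1, the smallest that 3 against 3 libraries allow. Without des1-5 and ck3 it was -0.80, and between des1-5 and ck3 alone -0.825.

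Among the other listed genes of DNA methylation, OsDRM2 rose, OsMET1-2 and CMT1 fell, and the remaining tested members did not pass the threshold, an adjusted p under 0.05. Over all 22981 rows that averaged at least 1 FPKM, 3.12% were called higher and 5.84% lower in osrdr2-3, 8.96% in all. Of the 4 genes listed for RNA-directed DNA methylation, 1 was higher and 1, OsRDR2, lower, and the list's median log2 fold change was -0.12 beside 0.015 over all rows. Of the 5 methyltransferase genes tested, which share OsDRM2 with that list, 1 was higher and 2 were lower, with a median of -0.65. With so few members, these counts describe the genes and not the lists.

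OsDRM2 (LOC_Os03g02010), the de novo methyltransferase at the end of the pathway, was at 42.5, 41.6 and 36.9 FPKM in osrdr2-3, against 22.5, 21.5 and 19.4 FPKM in Nip. Every osrdr2-3 library exceeded every Nip library, with a log2 fold change of 0.90 (SE 0.10, limma adjusted p = 0.00412). OsMET1-2 (LOC_Os07g08500), of the family that maintains CG methylation, moved the other way: it was at 2.73, 2.17 and 1.58 FPKM in osrdr2-3 and 7.88, 7.69 and 7.11 FPKM in Nip, a log2 fold change of -1.45 (SE 0.17, adjusted p = 0.00455). Its paralog OsMET1-1 averaged 0.494 ± 0.174 FPKM in osrdr2-3 and 0.704 ± 0.132 FPKM in Nip (SD, n = 3 each), below the level at which rows were tested. The division of shared reads between the paralogs is not known.

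CMT1 (LOC_Os03g12570), a chromomethylase gene, was close to absent in osrdr2-3, at 0.123, 0.111 and 0.269 FPKM, against 3.23, 3.60 and 7.24 FPKM in Nip. Its level in Nip was highest in ck3. The log2 fold change was -2.22 (SE 0.28, limma adjusted p = 0.00652). OsCMT3a (LOC_Os10g01570), the chromomethylase of CHG sites, was at 1.86, 1.66 and 2.47 FPKM in osrdr2-3, against 3.77, 3.77 and 3.48 FPKM in Nip. Its groups did not overlap either, but its log2 fold change of -0.65 did not pass (adjusted p = 0.0519); with the term for des1-5 and ck3 it did (adjusted p = 0.00575).

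The Argonautes that bind the pathway's small RNAs gave no call. OsAGO4a averaged 138.2 ± 14.0 FPKM in osrdr2-3 and 163.4 ± 14.3 FPKM in Nip (log2 fold change -0.24, limma adjusted p = 0.329; 0.00163 with the term). OsAGO4b, whose long row lies in a locus shared with other rows, averaged 37.7 ± 7.23 FPKM in osrdr2-3 and 37.7 ± 6.45 FPKM in Nip. DRM3, a further DRM-class gene, averaged 20.6 ± 2.42 FPKM in osrdr2-3 and 17.94 ± 1.41 FPKM in Nip (adjusted p = 0.499; 0.0253 with the term). ROS1C, a DNA glycosylase that removes methylated cytosine and the 1 demethylase listed, averaged 1.89 ± 0.821 FPKM in osrdr2-3 and 1.66 ± 0.543 FPKM in Nip (adjusted p = 0.937), and it was not past an unadjusted p of 0.05 in limma either.

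**Figure D2:**
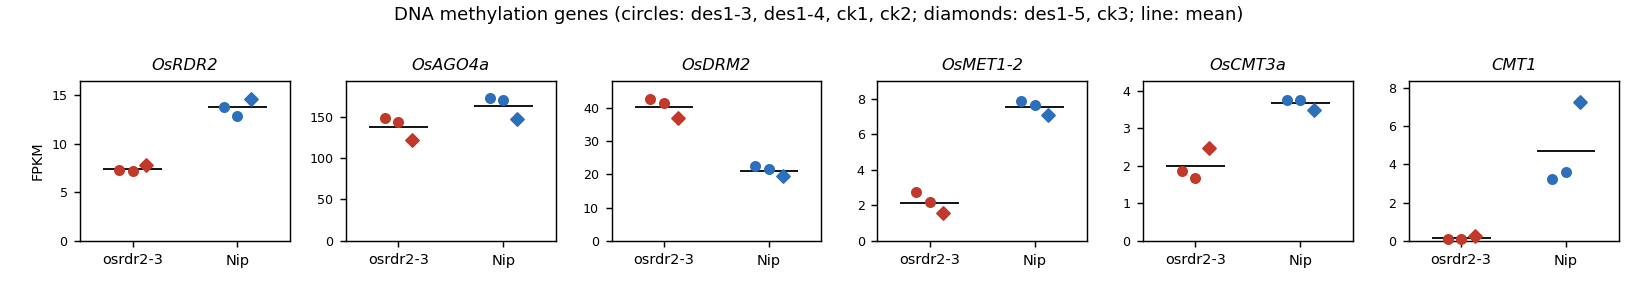
FPKM of 6 DNA methylation genes in each library, osrdr2-3 (red) left of Nip (blue), with the group mean as a line and des1-5 and ck3 as diamonds; each panel has its own axis from 0. OsDRM2 is higher in every osrdr2-3 library (36.9 to 42.5 FPKM) than in any Nip library (19.4 to 22.5 FPKM), and OsRDR2, OsMET1-2, OsCMT3a and CMT1 are lower in every one.

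Across the whole panicle transcriptome, more rows were called lower than higher in osrdr2-3 in the fit without a term for des1-5 and ck3, and most of the large differences were falls. Of 22981 rows, 718 were higher and 1341 lower (limma, adjusted p under 0.05). A fold of at least 2 on the log2(FPKM + 1) scale was reached by 348 of the higher and 847 of the lower rows, and a fold of at least 10 by 19 and 200. In every called row the groups did not overlap, whereas 13.1% of all tested rows had every osrdr2-3 library above every Nip library and 14.5% every one below. The median log2 fold change over all rows was 0.015, or 0.018 after median-ratio scaling.

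The number of calls depended on des1-5 and ck3, and the counts of large changes hardly did when these libraries were left out. With the term for these libraries 5062 rows (22.0%) were higher and 4884 (21.3%) lower, 43.3% in all, and without them 4062 (18.1%) and 4222 (18.8%), 36.9% in all, so that the split between directions became close to even, with slightly more higher than lower rows with the term. At a fold of at least 10 the counts were 19 higher and 210 lower with the term, and 19 and 206 without those libraries. The term is balanced over the genotypes, so it leaves each fold change and its direction as they were and acts on the p-values only. All 718 higher and 1341 lower rows stayed past the threshold with the term, in a direction that was thus fixed in advance. Without the libraries 712 and 1314 were called the same way. Leaving out 1 other library of the 4 brought the higher calls to between 265 and 278 and the lower calls to between 703 and 768.

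**Figure D3:**
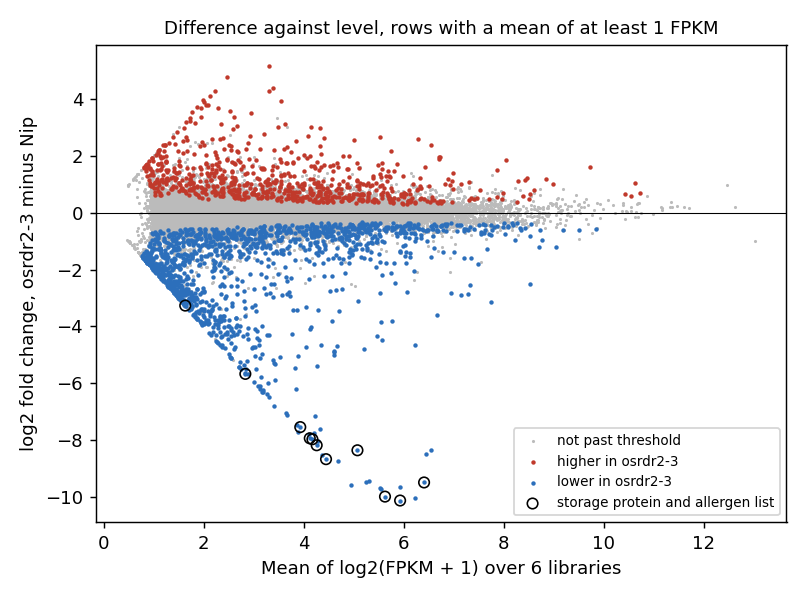
Log2 fold change, osrdr2-3 minus Nip, against the mean of log2(FPKM + 1) over 6 libraries for 22981 rows; red rows were called higher (718), blue rows lower (1341), and circles mark 11 genes of storage proteins and albumin allergens. The circled genes lie along the lower edge of the cloud, with a median of -8.18.

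Genes of the filling grain were among the largest falls. The list of grain storage proteins and albumin allergens was drawn up after its values were seen, from genes with a RefSeq name. All 11 listed genes were lower in osrdr2-3, beside 5.84% of all rows, with a median log2 fold change of -8.18. Together they held 0.000363, 0.00149 and 0.000486% of the summed FPKM in osrdr2-3 libraries, against 1.37, 1.39 and 0.655% in Nip libraries. In such tissue RNA, fewer cells of a type and less RNA per cell cannot be told apart. The labels give no stage for the panicles of either group. The part of a difference in stage or tissue content was not tested, for these and the other grain genes or for any other gene named here.

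Glutelins, the main storage proteins of rice endosperm, were among the most abundant transcripts of Nip. GLUA1 (LOC_Os01g55690) was at 1.53, 4.29 and 1.38 FPKM in osrdr2-3, against 2801, 2856 and 1478 FPKM in Nip, a log2 fold change of -9.49 (SE 0.41, limma adjusted p = 0.000112). GLUA3 (LOC_Os03g31360, the more abundant of 2 rows with this ID) was at 0.0947, 2.095 and 0.781 FPKM in osrdr2-3 and 2364, 2425 and 1474 FPKM in Nip. Its log2 fold change of -10.13 (SE 0.41, adjusted p = 9.8e-05) was the largest fall of any row with 1 ID. In both genes des1-4 was the highest osrdr2-3 library and ck3 the lowest Nip library, and the groups lay far apart. The other row with the ID of GLUA3 averaged 2.00 FPKM in osrdr2-3 and 1.47 FPKM in Nip.

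The other listed glutelins followed. GluB5, GluB4 and GLUD1 averaged 0.131, 0.117 and 0.153 FPKM in osrdr2-3, against 333, 279 and 287 FPKM in Nip. GLUB2 was listed at 0 in every osrdr2-3 library and at 13.9, 2.86 and 14.5 FPKM in Nip (adjusted p = 0.0204). Its call was lost on leaving out any 1 library but ck2 (adjusted p = 0.0529 to 0.0911). Glutelin genes are similar in sequence, and how shared reads were divided among them is not known.

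PROLM25 (LOC_Os07g10580), a prolamin, the second class of rice storage protein, was at 0, 1.35 and 0.583 FPKM in osrdr2-3 and 2176, 2113 and 849.8 FPKM in Nip (log2 fold change -9.99, SE 0.48, limma adjusted p = 0.00017). The seed albumin allergens, small proteins known from rice allergy, behaved alike. RAG2 was at 0.0672, 0.184 and 0 FPKM in osrdr2-3, against 560.0, 562 and 270.2 FPKM in Nip. RA5 averaged 0.871 ± 0.235 FPKM in osrdr2-3 and 643 ± 229 FPKM in Nip, and RA16 0.123 ± 0.121 and 209 ± 25.4 FPKM in the same order. RAG1 was listed at 0 in every osrdr2-3 library and averaged 52.8 FPKM in Nip.

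Many genes of starch synthesis were lower. Of 15 tested genes of starch synthesis and sucrose cleavage, also listed after their values were seen, 8 were lower and 2 higher, with a median log2 fold change of -0.57. Over all rows 5.84% were lower and 3.12% higher. The fit with the term gave 9 lower and 2 higher of the 15, beside 21.3% and 22.0% of all rows. GBSS1 (LOC_Os06g04200), the granule-bound starch synthase that makes amylose in the grain, was at 0.409, 0.483 and 0.824 FPKM in osrdr2-3, against 216, 206 and 244 FPKM in Nip. This was a log2 fold change of -7.15 (SE 0.14, limma adjusted p = 1.54e-05). SSII-3, a soluble starch synthase of amylopectin, averaged 0.210 ± 0.134 FPKM in osrdr2-3 and 32.0 ± 12.0 FPKM in Nip.

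Other starch genes fell and remained well expressed in the mutant. The branching enzyme SBE was at 58.1, 60.2 and 53.5 FPKM in osrdr2-3, against 436, 443 and 375 FPKM in Nip (log2 fold change -2.84, SE 0.10, limma adjusted p = 5.78e-05). AGPS2, a small subunit of ADP-glucose pyrophosphorylase, averaged 46.3 ± 11 FPKM in osrdr2-3 and 329 ± 49.5 FPKM in Nip. ISA1, a debranching enzyme, averaged 15.2 ± 0.505 and 54.5 ± 3.20 FPKM in the same order. PPDKB, a pyruvate orthophosphate dikinase abundant in endosperm, averaged 72.2 ± 9.57 FPKM in osrdr2-3 and 638 ± 54.4 FPKM in Nip. The smallest called difference was in SSI, a soluble synthase, at 39.3 ± 1.16 FPKM in osrdr2-3 and 58.8 ± 0.774 FPKM in Nip, whose call was lost without ck1, ck2 or des1-4 (adjusted p = 0.052 to 0.0539).

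Sucrose synthases, which split sucrose for starch and wall synthesis, went in both directions. SUS3 fell to 9.83, 9.37 and 7.99 FPKM in osrdr2-3, against 233, 235 and 200.0 FPKM in Nip (log2 fold change -4.47, SE 0.11, limma adjusted p = 2.7e-05; the more abundant of 2 rows with this ID). SUS4 was at 532, 508 and 347 FPKM in osrdr2-3 and 243, 239 and 162 FPKM in Nip (log2 fold change 1.1, adjusted p = 0.044). SUS5 averaged 1.75 ± 0.337 FPKM in osrdr2-3 and 0.335 ± 0.159 FPKM in Nip (adjusted p = 0.018). The SUS4 call was lost without any 1 library but des1-5 (adjusted p = 0.0828 to 0.171), and the SUS5 call without ck1 or ck2 (0.088 and 0.0564).

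Some sugar transporters were lower too. Of 11 tested SWEET genes, which encode sugar exporters of the plasma membrane and vacuole, 4 were lower and 1 higher, with a median log2 fold change of -0.18. Over all rows 5.84% were lower and 3.12% higher. The fit with the term gave 5 lower and 3 higher of the 11, beside 21.3% and 22.0% of all rows. SWEET11 was at 81.6, 88.0 and 120.0 FPKM in osrdr2-3, against 299.8, 306 and 406 FPKM in Nip (log2 fold change -1.80, SE 0.20, limma adjusted p = 0.00365). SWEET15, its partner in filling the seed, averaged 24.6 ± 6.13 FPKM in osrdr2-3 and 83.3 ± 12.3 FPKM in Nip. SWEET5 had the largest difference of the family, at 0.381 ± 0.0986 FPKM in osrdr2-3 and 26.3 ± 2.56 FPKM in Nip (log2 fold change -4.30).

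Not all members moved this way. SWEET4, also known from grain filling, averaged 305 ± 15.6 FPKM in osrdr2-3 and 351 ± 9.20 FPKM in Nip (limma adjusted p = 0.256; 0.00594 with the term). SWEET13 averaged 42.6 ± 1.19 and 60.2 ± 2.64 FPKM in the same order (adjusted p = 0.0153), and SWEET3A was higher in osrdr2-3, at 14.98 ± 3.88 FPKM, against 4.37 ± 1.26 FPKM in Nip (adjusted p = 0.0206). The calls of SWEET13 and SWEET3A were lost without any 1 of ck1, ck2, des1-3 and des1-4 (adjusted p = 0.0698 to 0.0958 and 0.059 to 0.0952).

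Regulators and folding factors of the grain also held lower genes. NFYB1, an NF-Y subunit expressed in endosperm, was at 0.452, 0.941 and 0.292 FPKM in osrdr2-3, against 27.2, 21.9 and 46.0 FPKM in Nip (log2 fold change -4.34, SE 0.31, limma adjusted p = 0.000692), the 1 lower gene of 3 regulators tested. OsMADS29, a MADS gene of the developing seed, averaged 14.98 ± 6.27 FPKM in osrdr2-3 and 29.9 ± 8.89 FPKM in Nip and did not pass (adjusted p = 0.149; 0.000115 with the term). With the term 1 of the 3 regulators was higher and 2 were lower, beside 22.0% and 21.3% of all rows. Of 10 tested genes of protein folding in the endoplasmic reticulum 4 were lower and 0 higher (1 at an unadjusted p under 0.05), with a median log2 fold change of -0.23. Over all rows 5.84% were lower and 3.12% higher. The fit with the term gave 6 lower and 2 higher of the 10.

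The folding genes that fell included those known from storage protein synthesis. BIP1, the luminal chaperone, averaged 66.5 ± 13.4 FPKM in osrdr2-3 and 390.3 ± 68.5 FPKM in Nip (log2 fold change -2.54, SE 0.19, limma adjusted p = 0.000821). PDIL1-1, a protein disulfide isomerase needed for glutelin folding, averaged 348 ± 19.0 FPKM in osrdr2-3 and 803 ± 43.1 FPKM in Nip. PDIL1-4 and PDIL2-3, further isomerases, averaged 25.2 and 14.8 FPKM in osrdr2-3 and 112 and 47.6 FPKM in Nip.

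Of 6 tested genes of seed oil bodies, seed vacuoles and late embryogenesis, 3 were lower and 0 higher (0 at an unadjusted p under 0.05), with a median log2 fold change of -2.83. Over all rows 5.84% were lower and 3.12% higher. The fit with the term gave 5 lower and 0 higher of the 6, beside 21.3% and 22.0% of all rows. OLE18, an oleosin that coats oil bodies, was at 0.194, 0.162 and 0.249 FPKM in osrdr2-3, against 49.4, 34.6 and 154 FPKM in Nip (limma adjusted p = 0.002). EM, a late embryogenesis abundant protein, averaged 0.647 ± 0.371 FPKM in osrdr2-3 and 23.8 ± 0.899 FPKM in Nip. TIP3-1, a tonoplast aquaporin of seeds, averaged 2.45 ± 2.1 and 67.6 ± 46.8 FPKM in the same order. OLE18 and TIP3-1 were highest in ck3, whereas GLUA1, GLUA3, PROLM25 and RAG2 were lowest there, so the Nip libraries differed among themselves in which seed genes they held most.

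**Figure D4:**
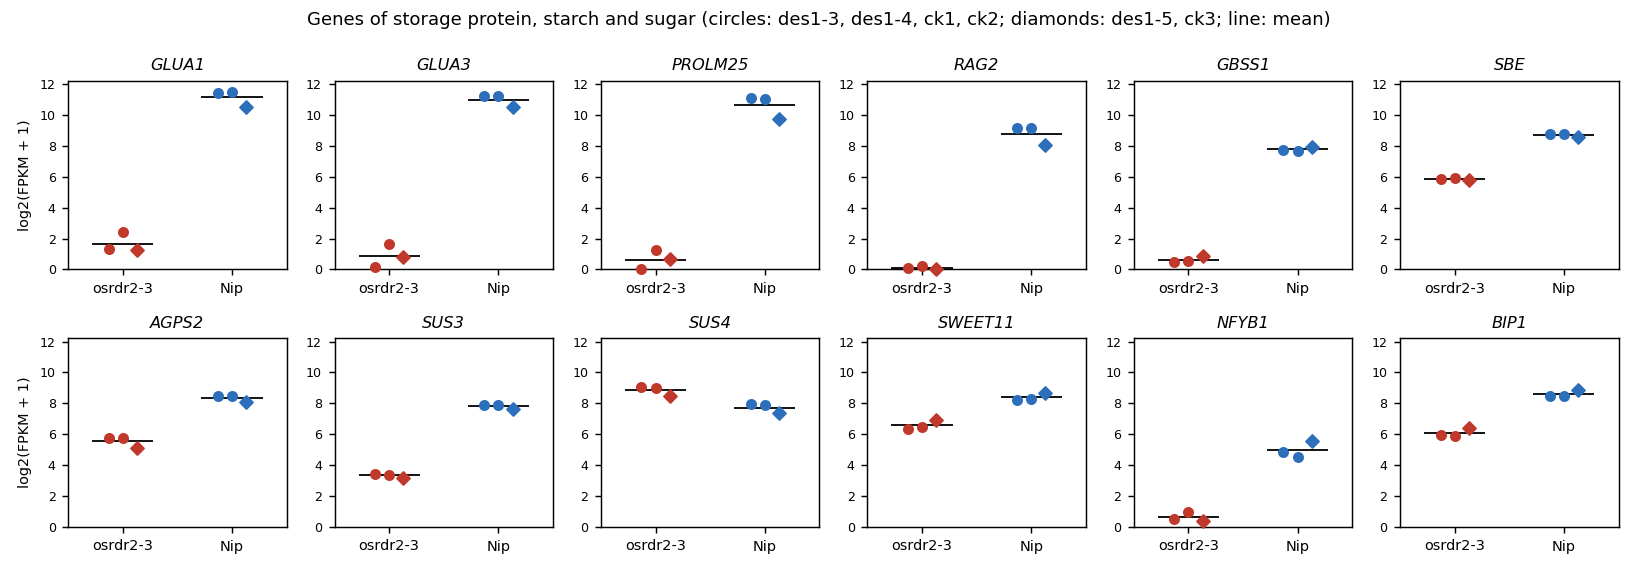
Log2(FPKM + 1) of 12 genes of storage protein, starch, sugar transport and folding in each library, osrdr2-3 (red) left of Nip (blue), with the group mean as a line and des1-5 and ck3 as diamonds, on 1 shared scale. GLUA1, GLUA3, PROLM25, RAG2, GBSS1 and NFYB1 lie near the foot of the scale in osrdr2-3, while SBE, AGPS2, SWEET11 and BIP1 are lower than in Nip but above 5, and SUS4 is the 1 gene shown that is higher.

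Among abundant transcripts, falls of at least 10-fold included most of the storage genes. Of 992 rows at 100 FPKM or more in every Nip library, 38 were at least 10-fold lower in every osrdr2-3 library than in any Nip library. Of 935 rows at that level in every osrdr2-3 library, 0 were as much lower in Nip. The 38 rows held 0.0135, 0.0173 and 0.0129% of the summed FPKM in osrdr2-3, against 4.15, 4.20 and 2.43% in Nip. They were chosen for being lower in osrdr2-3, so a gap in their share was fixed by that choice. Of these rows, 9 were on the storage protein list and 25 had no RefSeq name.

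Several of the 10 largest falls carry no name in the reference used, so only their values are given. LOC_Os05g41970 (chromosome 5, 24576896 to 24577736) was at 0.543, 2.35 and 1.36 FPKM in osrdr2-3 and 2286, 2304 and 2720 FPKM in Nip, a log2 fold change of -10.04 (SE 0.28, limma adjusted p = 3.16e-05). LOC_Os06g31070, LOC_Os02g15150, LOC_Os12g16890, LOC_Os07g11920, LOC_Os02g14600 and LOC_Os02g25640 averaged between 0.129 and 1.38 FPKM in osrdr2-3 and between 937 and 1825 FPKM in Nip. Their log2 fold changes ran between -9.72 and -9.46. LOC_Os02g15150 and LOC_Os12g16890 share their locus with other rows of the table.

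Lower rows were found on every chromosome, with a dense group on chromosome 7. The share of tested rows that were lower ran between 5.03% on chromosome 12 and 6.64% on chromosome 7. Over 364 windows of 1 Mb with at least 20 tested rows, the median share was 5.44%. The highest was 33.3%, 15 of 45 rows, between 6 and 7 Mb of chromosome 7, the window that holds RAG1, RAG2, RA16 and RA5.

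The floral MADS genes, which set the identity of floral organs and were taken as markers of the labelled tissue, were abundant in both genotypes. Their summed level was 3708, 3532 and 4292 FPKM in osrdr2-3 and 3736, 3684 and 4035 FPKM in Nip. OsMADS1, of lemma and palea identity, was at 1495, 1365 and 1810 FPKM in osrdr2-3, against 1686, 1655 and 1848 FPKM in Nip, in a row whose locus holds other rows. OsMADS3, of stamen identity, averaged 115 ± 14.9 FPKM in osrdr2-3 and 123 ± 13.8 FPKM in Nip, and OsMADS13, of ovule identity, 121 ± 3.31 and 115 ± 3.60 FPKM in the same order. Floral MADS transcripts were thus present in every library, and the Nip libraries held abundant grain transcripts beside them. Other tissue markers were low: the tapetum regulators TDR, EAT1, TIP2 and PTC1 stayed under 1 FPKM in every library. The floral MADS genes alone do not give the stage of the panicles.

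Of 18 floral MADS genes tested, 1 was higher and 1 lower, beside 3.12% and 5.84% of all rows, with a median log2 fold change of 0.05. OsMADS2, a B-class gene of lodicules and stamens, was at 78.7, 79.0 and 82.3 FPKM in osrdr2-3, against 49.98, 47.7 and 51.9 FPKM in Nip (log2 fold change 0.67, SE 0.08, limma adjusted p = 0.00419). OsMADS21, of the ovule class, was at 45.5, 45.9 and 39.2 FPKM in osrdr2-3 and 77.3, 82.2 and 70.3 FPKM in Nip (log2 fold change -0.80, adjusted p = 0.00755; 0.0532 without ck1). OsMADS16, the other B-class partner, was at 188, 191 and 359 FPKM in osrdr2-3, against 90.2, 89.6 and 168 FPKM in Nip. Its groups did not overlap, but both des1-5 and ck3 were high, and its log2 fold change of 1.08 did not pass (adjusted p = 0.154), but did with the term (2.12e-06) and without these libraries (2.07e-05). With the term 6 of the 18 were higher and 3 lower, beside 22.0% and 21.3% of all rows in that fit.

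Genes of the inflorescence meristem and branching gave 1 higher and 0 lower of 10 tested (0 lower at an unadjusted p under 0.05), with a median log2 fold change of 0.41. Over all rows 3.12% were higher and 5.84% lower. OsMADS47, an SVP-type MADS gene, was at 11.7, 12.21 and 18.1 FPKM in osrdr2-3, against 4.45, 4.61 and 7.71 FPKM in Nip (log2 fold change 1.2, SE 0.25, limma adjusted p = 0.0424). The call was lost without any 1 library but ck3 (adjusted p = 0.0788 to 0.165). The KNOX genes OSH1 and OSH6, which maintain the shoot meristem, averaged 19.2 ± 3.71 and 6.35 ± 0.555 FPKM in osrdr2-3 and 13.5 ± 0.835 and 3.78 ± 0.635 FPKM in Nip (adjusted p = 0.149 and 0.0572). With the term 7 of the 10 were higher and 0 lower, beside 22.0% and 21.3% of all rows in that fit.

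Flowering time genes gave 1 higher and 1 lower of 11, beside 3.12% and 5.84% of all rows, with a median log2 fold change of 0.09. The fit with the term gave 5 higher and 3 lower of the 11, beside 22.0% and 21.3% of all rows. Hd3a (LOC_Os06g06320), the florigen of rice that moves from leaf to shoot tip, was at 1.46, 1.72 and 1.55 FPKM in osrdr2-3, against 7.58, 8.42 and 6.54 FPKM in Nip. The log2 fold change was -1.72 (SE 0.14, limma adjusted p = 0.00101). OsPRR95, a pseudo-response regulator of the clock, averaged 41.8 ± 1.57 FPKM in osrdr2-3 and 29.5 ± 0.239 FPKM in Nip (adjusted p = 0.0142), a call lost without any 1 of ck1, ck2, des1-3 and des1-4 (0.0836 to 0.0931).

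Markers of meiocytes were far less abundant than the floral MADS genes. The summed level of 11 meiosis genes ran between 49.8 and 52.7 FPKM in osrdr2-3 and between 58.5 and 61.0 FPKM in Nip. Of 7 tested, 0 were higher and 0 lower in limma (0 and 1 at an unadjusted p under 0.05), beside 3.12% and 5.84% of all rows. The fit with the term gave 1 higher and 1 lower of the 7, beside 22.0% and 21.3% of all rows. PAIR2, an axis protein of meiotic chromosomes, averaged 19.2 ± 2.88 FPKM in osrdr2-3 and 19.3 ± 3.83 FPKM in Nip. MER3, a crossover helicase on a row with 2 IDs, was at 5.25, 5.39 and 9.33 FPKM in osrdr2-3 and 13.6, 13.6 and 20.2 FPKM in Nip, without overlap (log2 fold change -1.15, adjusted p = 0.0519; 3.47e-05 with the term).

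Tapetum and pollen wall genes summed to between 44.0 and 55.4 FPKM in osrdr2-3 and between 49.8 and 59.0 FPKM in Nip. Of the 12 listed, 6 averaged at least 1 FPKM and were tested. The regulators TDR, EAT1, TIP2 and PTC1 were among the 6 that were not, and stayed under 1 FPKM in every library. Of 6 tested, 1 was lower and 0 higher (0 at an unadjusted p under 0.05), beside 5.84% and 3.12% of all rows. The fit with the term gave 3 lower and 1 higher of the 6, beside 21.3% and 22.0% of all rows. The 1 lower gene without the term was RTS, a tapetum gene needed for pollen fertility. It was at 0.0906, 0.20 and 0.328 FPKM in osrdr2-3, against 3.92, 3.64 and 5.98 FPKM in Nip (log2 fold change -2.17, SE 0.20, limma adjusted p = 0.00201).

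Photosynthesis genes, markers of green tissue, summed to between 1800.2 and 2308 FPKM in osrdr2-3 and between 2316 and 2674 FPKM in Nip. Of 9 tested, 1 was lower and 0 higher (1 at an unadjusted p under 0.05), with a median log2 fold change of -0.24. Over all rows 5.84% were lower and 3.12% higher. RBCS, a Rubisco small subunit, was at 26.69, 30.9 and 36.2 FPKM in osrdr2-3 and 59.2, 57.2 and 62.4 FPKM in Nip (log2 fold change -0.92, limma adjusted p = 0.00898; 0.0557 and 0.0558 without ck1 or des1-4). CAB1R and CAB2R, chlorophyll-binding proteins, averaged 82.2 ± 25.7 and 276 ± 93.9 FPKM in osrdr2-3 and 95.7 ± 21.5 and 403 ± 126 FPKM in Nip (adjusted p = 0.743 and 0.415). With the term 1 of the 9 was higher and 7 were lower, beside 22.0% and 21.3% of all rows in that fit. The part of green tissue in the other results was not tested.

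Heat shock genes gave 0 higher and 0 lower of 8 in limma (0 and 1 at an unadjusted p under 0.05), beside 3.12% and 5.84% of all rows. The fit with the term gave 1 higher and 2 lower of the 8, beside 22.0% and 21.3% of all rows. HSP17.9B, a small heat shock protein, was at 99.96, 108 and 325 FPKM in osrdr2-3, against 106, 107 and 309 FPKM in Nip, with des1-5 and ck3 high. HSP17.9A, another of these proteins, was at 10.35, 10.9 and 7.98 FPKM in osrdr2-3 and 9.44, 10.4 and 8.36 FPKM in Nip, so not every member was high in these libraries. HSFA2E, a heat shock factor, averaged 26.3 ± 1.86 FPKM in osrdr2-3 and 23.3 ± 2.11 FPKM in Nip (adjusted p = 0.46).

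Other Dicer-like and Argonaute genes gave 1 higher and 0 lower of 12 (1 lower at an unadjusted p under 0.05), with a median log2 fold change of 0.14. Over all rows 3.12% were higher and 5.84% lower. The fit with the term gave 5 higher and 2 lower of the 12, beside 22.0% and 21.3% of all rows. OsPNH1, an Argonaute of shoot meristem and leaf development, was at 17.6, 15.6 and 16.59 FPKM in osrdr2-3, against 12.1, 11.6 and 12.0 FPKM in Nip (log2 fold change 0.45, limma adjusted p = 0.036). This call was lost on leaving out any 1 library (0.0693 to 0.168). OsDCL2a, a Dicer-like gene, was at 16.0, 15 and 7.22 FPKM in osrdr2-3 and 9.88, 9.58 and 4.62 FPKM in Nip, low in des1-5 and ck3 (adjusted p = 0.497; 0.000464 with the term). OsAGO18, a grass Argonaute, averaged 21.4 ± 3.77 FPKM in osrdr2-3 and 15.2 ± 3.00 FPKM in Nip (adjusted p = 0.217; 0.000546 with the term).

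Jasmonate genes gave 4 higher and 0 lower of 21 tested (1 lower at an unadjusted p under 0.05), with a median log2 fold change of 0.16. Over all rows 3.12% were higher and 5.84% lower. The fit with the term gave 9 higher and 3 lower of the 21, beside 22.0% and 21.3% of all rows. Both of the clearest rises were in 12-oxophytodienoate reductase family genes that lie close together on chromosome 6, and the division of shared reads among such paralogs is not known. Their part in jasmonate synthesis was not tested. OsOPR5 (LOC_Os06g11210) was at 23.4, 24.0 and 20.2 FPKM in osrdr2-3, against 6.51, 5.52 and 5.90 FPKM in Nip (log2 fold change 1.75, SE 0.12, limma adjusted p = 0.0005). OsOPR4 (LOC_Os06g11240) was at 53.8, 57.0 and 63.2 FPKM in osrdr2-3 and 18.4, 18.4 and 20.04 FPKM in Nip (log2 fold change 1.56, adjusted p = 0.000379).

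AOS3, an allene oxide synthase, was at 11.3, 12.7 and 15.4 FPKM in osrdr2-3, against 4.53, 5.00 and 7.02 FPKM in Nip (log2 fold change 1.13, limma adjusted p = 0.0198; 0.0565 to 0.0958 without any 1 of ck1, ck2, des1-3 and des1-4). COI1B, a jasmonate receptor, averaged 116 ± 4.62 FPKM in osrdr2-3 and 91.0 ± 2.79 FPKM in Nip (adjusted p = 0.0478; 0.0723 to 0.221 without any 1 library). JAZ9, a repressor of jasmonate responses, lay in the other direction, at 7.01, 5.64 and 10.8 FPKM in osrdr2-3 and 12.1, 12.1 and 24.1 FPKM in Nip, and did not pass (adjusted p = 0.19; 0.000486 with the term).

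The chitinase genes Cht1, Cht2 and Cht8 and the xylanase inhibitor gene RIXI were listed together after their values were seen. Of these 4 genes, 3 were higher and 0 lower (1 lower at an unadjusted p under 0.05), with a median log2 fold change of 1.68. Over all rows 3.12% were higher and 5.84% lower. The fit with the term gave 3 higher and 1 lower of the 4, beside 22.0% and 21.3% of all rows. Cht2 (LOC_Os05g33130), a chitinase, was at 145, 171 and 378 FPKM in osrdr2-3, against 34.7, 27.8 and 65.7 FPKM in Nip (log2 fold change 2.37, SE 0.47, limma adjusted p = 0.033; 0.0696 to 0.137 without any 1 of ck1, ck2, des1-3 and des1-4). Its neighbour Cht1 averaged 17.89 ± 4.73 FPKM in osrdr2-3 and 6.51 ± 2.24 FPKM in Nip (adjusted p = 0.0356; 0.0686 to 0.147 without any 1 library but ck3). RIXI averaged 8.76 ± 2.47 FPKM in osrdr2-3 and 1.38 ± 0.347 FPKM in Nip (adjusted p = 0.00417). Cht8, the most abundant of the 4 by its mean, lay in the other direction, at 270.5, 287 and 279 FPKM in osrdr2-3 and 319.6, 318 and 329 FPKM in Nip. It did not pass (log2 fold change -0.21, adjusted p = 0.207), but was called lower with the term (0.00494) and without des1-5 and ck3 (0.0227).

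**Figure D5:**
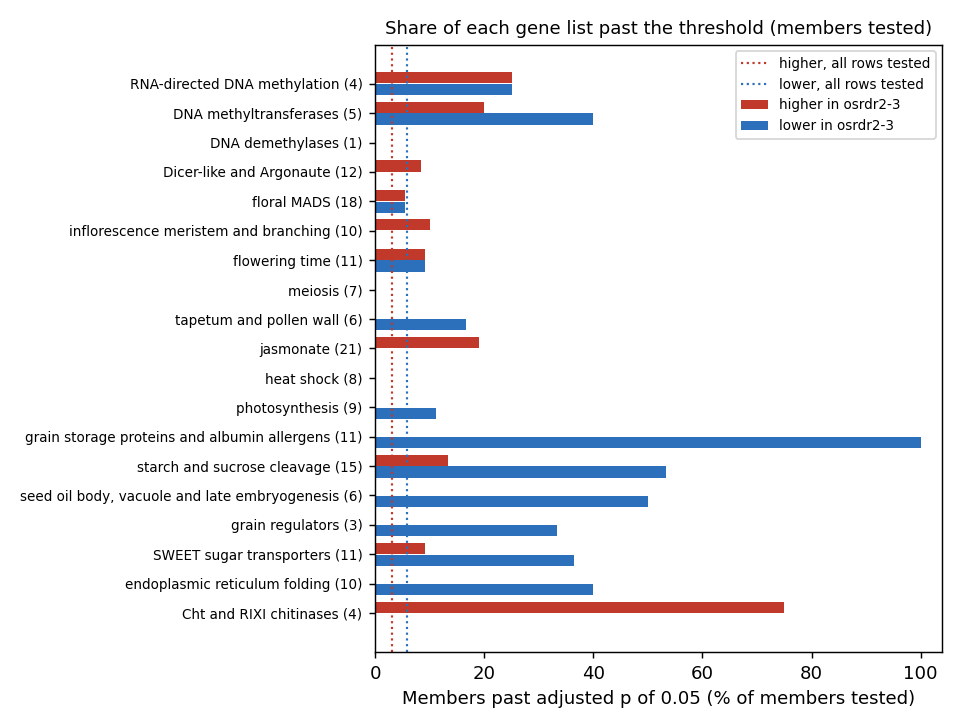
Share of tested members of each gene list called higher (red) or lower (blue) in osrdr2-3, with the number tested in brackets; dotted lines give the shares over all rows, 3.12% higher and 5.84% lower. The storage protein list is lower throughout (11 of 11), and the last 7 lists from the top were chosen after their values were seen.

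The 10 largest rises carry no name in the reference used. LOC_Os06g29679 (chromosome 6, 17028955 to 17032672) was at 58.6, 52.9 and 62.4 FPKM in osrdr2-3, against 0.699, 0.495 and 0.769 FPKM in Nip (log2 fold change 5.16, SE 0.12, limma adjusted p = 2.24e-05). LOC_Os03g56020 (chromosome 3, 31888362 to 31896406) was at 22.5, 21.9 and 43.6 FPKM in osrdr2-3 and at 0, 0 and 0.176 FPKM in Nip (log2 fold change 4.77, adjusted p = 0.00035). LOC_Os02g53240 was at 35.2, 34.8 and 84.0 FPKM in osrdr2-3 and 1.08, 0.816 and 2.18 FPKM in Nip. These rows were thus above 20 FPKM in every osrdr2-3 library and at 2.18 FPKM or less in every Nip library.

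The other 7 of these rises averaged between 13.2 and 46.9 FPKM in osrdr2-3. LOC_Os01g55140, LOC_Os10g33970, LOC_Os07g39450, LOC_Os03g47650 and LOC_Os07g05800 averaged between 0.049 and 0.391 FPKM in Nip, and LOC_Os11g06800 2.03 FPKM. LOC_Os03g12870 was listed at 0 in every Nip library and was at 18.5, 12.9 and 13.1 FPKM in osrdr2-3 (limma adjusted p = 0.000112). It is the most abundant of 3 rows with this ID, and LOC_Os01g55140 and LOC_Os10g33970 are each 1 of 2 rows with theirs. The other row of LOC_Os10g33970 averaged 21.5 ± 0.395 FPKM in osrdr2-3 and 18.36 FPKM in Nip, so that locus was transcribed in both genotypes.

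More rows were off in osrdr2-3 and on in Nip than the reverse. In all, 26 rows were under 0.1 FPKM in every Nip library and at 1 FPKM or more in every osrdr2-3 library, of which 5 reached 10 FPKM and 8 (30.8%) had no rice locus ID. In the other direction, 206 rows were under 0.1 FPKM in every osrdr2-3 library and at 1 FPKM or more in every Nip library. Of the 206, 58 reached 10 FPKM and 29 (14.1%) had no ID. Among all 57143 rows 1750 had no ID, and among the 22981 tested rows 969. LOC_Os07g42390 was the most abundant of the 206 rows, at 0, 0.0621 and 0 FPKM in osrdr2-3 and 195, 145 and 349 FPKM in Nip (limma adjusted p = 9.8e-05).

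Of the called rows with a RefSeq name, 27 were at least 2-fold higher and 90 at least 2-fold lower, the listed genes above included. Those named here were chosen after their values were seen. WOX11, a homeobox gene known from crown root growth, averaged 7.01 ± 1.72 FPKM in osrdr2-3 and 0.252 ± 0.0727 FPKM in Nip (log2 fold change 2.66, limma adjusted p = 0.000639). PSK2, a phytosulfokine precursor gene, averaged 27.6 ± 3.55 FPKM in osrdr2-3 and 5.50 ± 1.2 FPKM in Nip. The lectin-like salT, known as a salt-induced gene, was the most abundant, at 2278 ± 61.4 FPKM in osrdr2-3 and 1093 ± 67.0 FPKM in Nip (log2 fold change 1.06, adjusted p = 0.00348).

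Single named genes of diterpenoid synthesis, from which gibberellins and rice phytoalexins derive, are given without a count of the pathway. The copalyl diphosphate synthases CPS1, of gibberellin synthesis, and CPS4, of phytoalexin synthesis, averaged 1.22 ± 0.157 and 21.7 ± 1.98 FPKM in osrdr2-3, against 5.81 ± 0.643 and 70.0 ± 6.81 FPKM in Nip (limma adjusted p = 0.00132 and 0.000588). CYP701A19, a cytochrome P450 of the kaurene oxidase family, averaged 0.368 ± 0.0254 FPKM in osrdr2-3 and 3.21 ± 0.304 FPKM in Nip (adjusted p = 0.00104). The kaurene synthase-like gene KSL10 averaged 19.8 ± 1.33 FPKM in osrdr2-3 and 7.52 ± 0.934 FPKM in Nip (adjusted p = 0.00199). CYP76M7, a cytochrome P450 of phytoalexin synthesis, averaged 3.63 ± 1.45 FPKM in osrdr2-3 and 0.279 ± 0.13 FPKM in Nip (adjusted p = 0.00878; 0.0534 without ck1).

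Other lower named rows are likewise single genes, and their families were not counted. CPK23, CPK2 and CPK29, calcium-dependent protein kinases, averaged 8.87, 0.305 and 0.384 FPKM in osrdr2-3 and 199, 23.19 and 13.7 FPKM in Nip (log2 fold changes -4.34, -4.19 and -3.40). The expansins EXPB9 and EXPB3, which loosen cell walls, averaged 4.10 ± 0.790 and 78.5 ± 1.93 FPKM in osrdr2-3, against 129 ± 16.7 and 206 ± 2.02 FPKM in Nip. MCM2 and MCM3, of the replication helicase, averaged 3.19 ± 0.695 and 1.75 ± 0.0756 FPKM in osrdr2-3 and 8.38 ± 1.26 and 4.90 ± 0.440 FPKM in Nip (limma adjusted p = 0.0149 and 0.00394), the MCM2 call being lost without ck1, ck2 or des1-4 (0.0694 to 0.0847). RR13, a response regulator of cytokinin signalling, was listed at 0 in every osrdr2-3 library and averaged 11.8 ± 0.916 FPKM in Nip.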

How the data were processed

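Per the labels' protocols, RNA from young panicle was isolated by TRIzol, freed of DNA, selected for poly(A) on beads and fragmented before cDNA synthesis, size selection and PCR. The protocol names no strand marking, so antisense pairs may be mixed. The submitters' processing notes list TopHat, with no version given. Estimator, genome build and annotation: not given in the sources used here. Per the file headers, the authors deposited FPKM values in a table that pairs libraries (57143 rows: 54168 with 1 locus ID, 1225 with several, 1750 with none).

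FPKM was collected once per row and library. Of the 6 library names, 4 correspond to no single labelled sample and were grouped by name alone. The 46 rows with the authors' status HIDATA were left out. The values were tested as log2(FPKM + 1) over the 22981 rows averaging 1 FPKM or more, which understates changes of low genes. The test was limma 3.58.1 (R 4.3.3, variance trend, two-sided, Benjamini-Hochberg over all these rows, osrdr2-3 minus Nip). Fold changes are on the log2(FPKM + 1) scale. No counts were at hand, so no count model was used.

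Among rows under 0.3 FPKM, the commonest ratio to ck1, which reflects what 1 fragment is worth, was 0.931, 1.05 and 1.54 in des1-3, des1-4 and des1-5, and 1.07 and 2.38 in ck2 and ck3. It was shared by 17.5, 9.32 and 4.41% of such rows in des1-3, des1-4 and des1-5, and by 20.6 and 4.05% in ck2 and ck3, within 0.5%, too few to recover reads.

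Names were given by pairing loci with RefSeq genes (assembly ASM3414082v1) by position. All 203 listed symbols were paired, with 202 rows. The members and gene lists were chosen with earlier results of these data known; the lists planned from an earlier session were not at hand and were rebuilt from RefSeq symbols. The genes to be named were OsRDR2, the methylation, methyltransferase and demethylase lists, per other planned list up to 4 called members with the largest change or else the 2 most abundant, and the 10 largest called rises and 10 largest falls among rows with 1 ID. The lists of storage, starch, seed, grain regulator, SWEET and folding genes, of chitinase genes with RIXI, and other names, were added after values were seen. Alternatives covered the pseudocount (0.1), the filter (5 FPKM or none), median-ratio scaling, no variance trend, leaving out each library and, added after seeing the data, the treatment of des1-5 and ck3 and of the HIDATA rows.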

Additional observations from a re-analysis of the deposited data

How the results depend on the processing

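The numbers of called rows changed by over 1.5 times with the filter and with the libraries used, and the excess of lower over higher rows turned to a small excess of higher rows with a term for des1-5 and ck3. The 718 higher and 1341 lower rows became 460 and 766 among rows averaging 5 FPKM or more, 5062 and 4884 with that term, and 4062 and 4222 without these libraries, both of these settings chosen after seeing the data. Leaving out 1 library gave between 265 and 623 higher and between 703 and 1211 lower rows. With fewer libraries or rows some calls are lost by construction. The term is balanced over the genotypes and left the fold changes as they were, so the gain with it came through the p-values alone. What sets des1-5 and ck3 apart was not tested. The pseudocount, the scaling, the variance trend, no filter and keeping HIDATA rows left both counts within 1.5 times. OsRDR2 was called lower in every alternative run, with log2 fold changes between -0.767 and -0.881. Of 1821 recomputed fold changes of single genes, 15 changed sign, all of genes without a call: on leaving out 1 library at a time, OsAGO4b lay between -0.151 and 0.162, ROS1C between -0.082 and 0.359, PAIR2 between -0.168 and 0.106 and HSP17.9B between -0.547 and 0.508. OsAGO4b was at 0.015 without des1-5 and ck3, and median-ratio scaling gave 0.001 for PAIR2 and 0.003 for HSP17.9B. No paired analysis was possible because the library numbers of the groups coincide only for ck3 and des1-3; the term for des1-5 and ck3 was taken from the data, not from a number or label that pairs libraries. Values well under 1 FPKM may rest on few fragments.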
